A study of Mus musculus with 4 samples.

Results

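The genes described here are 38 ribosome biogenesis factors, proteins that make ribosomal RNA, process it and fold it into subunits without being part of the finished ribosome. They were chosen by symbol from a list of named factors and not by a cut on their measured values, though earlier results of these data were known. All 38 were found among 23284 gene symbols, each with a single entry. RNA was measured in 4 libraries of sorted mouse CD4 (helper) T cells, which fall into CCR7loCD137hi (2 libraries) and CCR7hiCD137lo (2 libraries). All cells came from spleens of BALB/c mice, an inbred strain, and had been cultured in Th1 conditions, with 15 ng/ml IL-2, a growth factor, and IL-12, a cytokine that drives the Th1 fate, at 10 ng/ml. No agent, genotype or allele other than the sort separated the populations, and the labels give the culture as 4 days in one place and 5 days in another. CCR7 is a homing receptor for lymph nodes and CD137, the product of Tnfrsf9, is a costimulatory receptor induced by activation. Each population has a library numbered 1 and a library numbered 2, and no label says whether a number marks a mouse, a culture or a day. A p-value here therefore reflects only how far these libraries spread, and that spread may be technical.

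Ribosomes are built mainly in the nucleolus. RNA polymerase I transcribes a long precursor RNA, small nucleolar RNAs (snoRNAs) guide proteins that modify and cut it, and 2 lines of assembly factors turn the pieces into the small (40S) and the large (60S) subunit. A T cell that has been activated enlarges its nucleoli and raises this machinery before it divides, and the transcription factor Myc is a well known activator of many of the genes.

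Values are FPKM, fragment counts scaled by transcript length and by library total, as deposited. Differences are on the log2(FPKM + 1) scale and positive where CCR7loCD137hi was higher. They were tested with limma over all 10496 genes with a mean of at least 1 FPKM, a group that held all 38 factors, and p-values were adjusted after Benjamini-Hochberg with 0.05 as the threshold. Depth, estimated from the steps between low values and so approximate, was 11600000 and 6290000 fragments in CCR7loCD137hi replicates 1 and 2 and 20500000 and 13000000 in CCR7hiCD137lo replicates 1 and 2. The fewest estimated fragments of a factor in any library were about 111, for Wdr12, a counting error of 9.49%. That estimate takes transcript length from GENCODE. In FPKM the lowest factor was Utp20. 

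The sort genes followed the labels and are no finding. Ccr7 stood at 39.6 and 38.2 FPKM in CCR7loCD137hi and at 93.4 and 118 FPKM in CCR7hiCD137lo, and Tnfrsf9 at 158 and 184 FPKM against 0.961 and 6.25 FPKM. The T cell genes Cd3e, Cd3d and Cd4 summed to 413 and 576 FPKM in CCR7loCD137hi and to 464 and 540 FPKM in CCR7hiCD137lo. Genes of other cells were low, though not equal between the libraries. The 4 B cell markers summed to 4.44 and 0.529 FPKM against 0.0917 and 0.145 FPKM, the 4 markers of CD8 T and NK cells to 14.4 and 4.38 FPKM against 2.63 and 4.58 FPKM. The 5 myeloid markers, of which 2 were at 0 in every library, summed to 0.122 and 0.185 FPKM against 0 and 0 FPKM. The 4 erythroid and platelet markers, of which 3 were at 0 in every library, summed to 0.724 and 1.56 FPKM against 0 and 0 FPKM. The part of these cells in the results was not tested.

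Some of the factors share sequence features that played no role in choosing them. The letters CACGTG, the E-box that Myc and related factors can bind, were searched in RefSeq promoters of build GRCm38.p6, from 250 bases before to 50 bases after the start. The motif reads the same on both strands. It lay in 7 of the 33 factors with an entry (21.2%), against 12.4% of the 7465 tested genes with an entry and 8.09% of all 27025 symbols. Bop1, Fbl, Npm1, Rrp12 and Rrs1 had no entry. The 7 windows are shown because they hold the match, with the E-box in capitals, 5′ to 3′ on the gene's own strand, and position 1 is the start.
Nop2 (large subunit, chr6:125131811-125131840, plus strand, position −60): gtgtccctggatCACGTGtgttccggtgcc
Pes1 (large subunit, chr11:3963965-3963994, plus strand, position 3): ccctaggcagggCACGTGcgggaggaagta
Wdr43 (small subunit, chr17:71616220-71616249, plus strand, position 18): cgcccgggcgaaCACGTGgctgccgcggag
Tsr1 (small subunit, chr11:74898092-74898121, plus strand, position 25): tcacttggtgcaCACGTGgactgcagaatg
Ltv1 (small subunit, chr10:13193092-13193121, minus strand, position 29): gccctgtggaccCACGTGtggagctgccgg
Utp20 (small subunit, chr10:88826765-88826789, minus strand, position 38): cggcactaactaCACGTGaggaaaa
Mybbp1a (RNA polymerase I regulator, chr11:72441355-72441376, plus strand, position 41): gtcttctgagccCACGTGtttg
In 6 of the 7 the match lay within 50 bases after the start, and only in Nop2 before it. A match is a stretch of letters and shows no binding. The 7 genes with the motif had a median log2 difference between the populations of −0.08, and the 26 with an entry and no match had −0.09.

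Many snoRNAs are cut from the introns of other genes, and 8 of the 38 factors (21.1%) had an annotated snoRNA gene within their span on the same strand in GENCODE, against 1.78% of 9122 tested protein-coding genes. The 8 genes, Ncl, Nop56, Nop58, Dkc1, Wdr43, Ppan, Gnl3 and Tsr1, held 23 snoRNA genes between them. Box C/D snoRNAs carry a C box near the 5′ end and a D box near the 3′ end, where the proteins made from Fbl, Nop56 and Nop58 bind. The letters TGATGA within the first 20 bases and CTGA within the last 20, read on the RNA's own strand, were both found in 11 of the 23 (47.8%), against 20.5% of 1507 snoRNA transcripts in the annotation. The search takes exact letters only and can miss box C/D RNAs, so 11 is no count of that class. Among the 23, Snord57, Snord70, Snord53, Snord19 and Snord91a did not match. The 1507 transcripts are snoRNAs of every class. The examples show such RNAs inside genes for the snoRNP proteins and for 1 factor of each subunit, with both boxes in capitals (mm10, DNA letters).
Snord110, inside Nop56 (chr2:130275506-130275573, plus strand): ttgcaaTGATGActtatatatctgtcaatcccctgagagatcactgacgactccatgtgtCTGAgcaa
Snord11, inside Nop58 (chr1:59704790-59704873, plus strand): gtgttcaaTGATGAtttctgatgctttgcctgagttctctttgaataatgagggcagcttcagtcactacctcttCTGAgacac
Snord92, inside Wdr43 (chr17:71631281-71631365, plus strand): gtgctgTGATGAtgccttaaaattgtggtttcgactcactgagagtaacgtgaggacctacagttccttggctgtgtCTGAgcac
Snord69, inside Gnl3 (chr14:31014287-31014366, minus strand): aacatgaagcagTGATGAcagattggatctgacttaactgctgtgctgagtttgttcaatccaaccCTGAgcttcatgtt
Nop56 and Nop58, genes for proteins that load onto these RNAs, themselves hold RNAs of that class. The 8 genes with a snoRNA inside had a median log2 difference of −0.10 and the other 30 had −0.07. Values of the snoRNAs themselves were not used here.

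The fitted differences between the populations were small. No factor passed limma's test, 0 of 38 in either direction (0.0572% of all tested genes passed, 0.0476% as higher and 0.00953% as lower), and none had an unadjusted p under 0.05 (8.13% of all tested genes did). The smallest p was that of Rrp1b (unadjusted p = 0.228, limma adjusted p = 0.771). Log2 differences ran from −0.33 for Dkc1 to 0.33 for Npm1, with 13 factors above 0 and 25 below and a median of −0.08, beside −0.01 over all tested genes. The 95% intervals were wide, the lowest bound being −1.40 (Bop1) and the highest 1.12 (Rrp9), so for some factors a difference of 1 log2 unit lay within the interval. Both CCR7loCD137hi libraries lay below both CCR7hiCD137lo libraries for 1 factor, Rrp1b (21.5% of all tested genes), and above them for 0 factors (16.6% of all tested genes). The fit left the replicate number out, so the difference between numbers entered its spread and these counts. The median absolute difference of the factors was 0.17 between populations within a number and 0.54 between numbers within a population. Over all tested genes these were 0.19 and 0.22. With the number as a block, none was called (smallest limma adjusted p = 0.123). In that fit 3 had an unadjusted p under 0.05, with no count over all tested genes beside it.

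For these factors, the larger differences lay between the replicate numbers. All 38 factors were lower in replicate 2 than in replicate 1 in CCR7loCD137hi, all 38 were also lower in CCR7hiCD137lo, and so all 38 were lower in both, against 29.4% of all tested genes. By more than 0.2 in both populations it was 36 factors, against 10.6% of all tested genes. The median of replicate 2 minus replicate 1 was −0.69 in CCR7loCD137hi and −0.45 in CCR7hiCD137lo, where the medians over all tested genes were 0.03 and 0.08. Across populations, both libraries numbered 2 lay below both numbered 1 for 37 factors, against 19.8% of all tested genes, and the exception was Rrp1b. Summed over the factors, the level in replicate 2 was 63.7% of that in replicate 1 in CCR7loCD137hi and 73.2% in CCR7hiCD137lo. The factors made up 0.571% and 0.356% of all FPKM in CCR7loCD137hi replicates 1 and 2, and 0.530% and 0.376% in CCR7hiCD137lo replicates 1 and 2. The libraries numbered 2 were also the shallower of each population, and the part of depth in this difference was not tested. In these bulk samples, fewer cells of a type and less RNA per cell cannot be told apart.

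**Figure D1:**
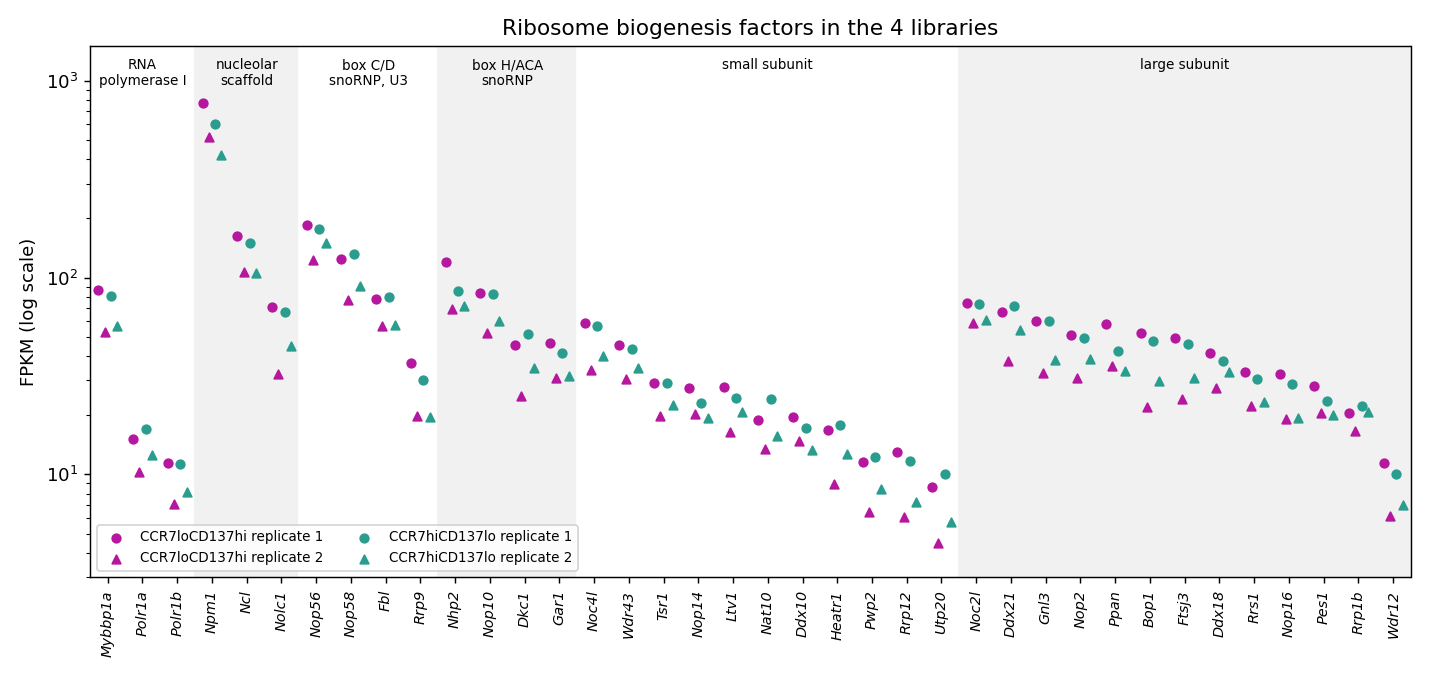
FPKM of the 38 factors (log axis) in each library, grouped by role and ordered by mean level; circles are replicate 1 and triangles replicate 2, CCR7loCD137hi in magenta and CCR7hiCD137lo in green. For 37 of the 38 factors both triangles lie below both circles, while the colours overlap for all but Rrp1b.

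Genes of RNA polymerase I and its regulation came in 2 levels. Mybbp1a, which encodes a nucleolar protein that binds Myb and acts on ribosomal DNA transcription, had 86.6 and 53.2 FPKM in CCR7loCD137hi and 80.2 and 57.0 FPKM in CCR7hiCD137lo. The libraries numbered 2 were the lower ones and the populations overlapped (log2 difference 0.01, SE 0.30, limma adjusted p = 0.999, unadjusted p = 0.985), with a sign that turned under other scalings (−0.022 and −0.052). Polr1a, the largest subunit of the polymerase, had 15.1 and 10.3 FPKM in CCR7loCD137hi and 17.0 and 12.5 FPKM in CCR7hiCD137lo. It was lower in CCR7loCD137hi within each number, but the populations overlapped (−0.21, SE 0.25, limma adjusted p = 0.865, unadjusted p = 0.441). Polr1b, the second largest subunit, had 11.4 and 7.11 FPKM in CCR7loCD137hi and 11.3 and 8.10 FPKM in CCR7hiCD137lo.

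The genes for nucleolar scaffold proteins held both the highest factor and some of the largest contrasts. Npm1 (chromosome 11, 33152498 to 33163206, minus strand), which encodes nucleophosmin, a chaperone of the nucleolus, had 766 and 519 FPKM in CCR7loCD137hi and 602 and 418 FPKM in CCR7hiCD137lo. Within each number CCR7loCD137hi was the higher library, by 0.35 and 0.31, yet replicate 2 of CCR7loCD137hi lay below replicate 1 of CCR7hiCD137lo. The overall log2 difference was 0.33 (SE 0.27) and did not pass (unadjusted p = 0.291, limma adjusted p = 0.808). Ncl, nucleolin, which binds precursor RNA, had 163 and 106 FPKM in CCR7loCD137hi and 149 and 105 FPKM in CCR7hiCD137lo. Nolc1, a phosphoprotein that shuttles snoRNPs, had 70.8 and 32.5 FPKM against 67.0 and 45.0 FPKM, so it was near level in replicate 1 and lower in CCR7loCD137hi in replicate 2.

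Box C/D snoRNPs methylate ribosomal RNA, and the U3 snoRNP acts in early cutting. RNA of all the genes of this group was higher in replicate 1 than in replicate 2 of both populations. Nop56 (chromosome 2, 130274412 to 130279313, plus strand), a core protein, had 185 and 123 FPKM in CCR7loCD137hi and 176 and 149.8 FPKM in CCR7hiCD137lo (−0.11, SE 0.23, limma adjusted p = 0.937, unadjusted p = 0.673). Its partner Nop58 had 124 and 76.9 FPKM in CCR7loCD137hi and 132 and 91.1 FPKM in CCR7hiCD137lo (−0.16, SE 0.31, limma adjusted p = 0.917, unadjusted p = 0.617). Neither separated the populations. The methyltransferase gene Fbl, fibrillarin, was nearly level within each number, at 77.8 and 56.7 FPKM in CCR7loCD137hi and 79.3 and 57.2 FPKM in CCR7hiCD137lo. Rrp9, a U3 protein gene, had 36.8 and 19.9 FPKM against 30.0 and 19.6 FPKM and was thus higher in CCR7loCD137hi mainly in replicate 1.

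Box H/ACA snoRNPs turn uridine into pseudouridine and also stabilise telomerase RNA. RNA of the genes for their 4 core proteins was lower in replicate 2 in both populations. Within replicate 2 it was lower in CCR7loCD137hi for all 4. No difference between the 4 genes was tested. Dkc1 (chromosome X, 75095854 to 75109776, plus strand), dyskerin, the pseudouridine synthase, had 45.3 and 24.9 FPKM in CCR7loCD137hi and 51.9 and 34.6 FPKM in CCR7hiCD137lo. It was lower in CCR7loCD137hi in both numbers and had the most negative difference of all factors (−0.33, SE 0.36, limma adjusted p = 0.854, unadjusted p = 0.404). Nhp2 had 121 and 69.1 FPKM in CCR7loCD137hi and 85.4 and 71.5 FPKM in CCR7hiCD137lo, so the single library CCR7loCD137hi replicate 1 stood above the other 3 (0.22, SE 0.30, limma adjusted p = 0.878, unadjusted p = 0.491). Gar1 had 46.7 and 30.9 FPKM against 41.4 and 31.7 FPKM, and Nop10 had 83.3 and 52.5 FPKM against 82.7 and 60.1 FPKM. Gar1 was near level within replicate 2, and Nop10 within replicate 1.

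Of the 11 factors of the small subunit processome and of 40S maturation, 9 were fitted below 0 and 2 above, with none called. Noc4l, whose yeast counterpart acts in 40S assembly, had 58.7 and 34.0 FPKM in CCR7loCD137hi and 56.9 and 40.1 FPKM in CCR7hiCD137lo (−0.09, SE 0.32, limma adjusted p = 0.960, unadjusted p = 0.785). Heatr1, a large processome protein that also acts in ribosomal DNA transcription, had 16.9 and 8.93 FPKM in CCR7loCD137hi and 17.8 and 12.8 FPKM in CCR7hiCD137lo (−0.27, SE 0.34, limma adjusted p = 0.872, unadjusted p = 0.466). Its lowest library was CCR7loCD137hi replicate 2, and the same library was the lowest for Utp20, a processome protein, with 8.63 and 4.46 FPKM in CCR7loCD137hi and 10.1 and 5.76 FPKM in CCR7hiCD137lo. Nat10, the acetyltransferase that modifies 18S ribosomal RNA, had 19.0 and 13.5 FPKM against 24.1 and 15.6 FPKM and was lower in CCR7loCD137hi in both numbers.

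The remaining small subunit factors split in the same way. Ddx10, an RNA helicase, had 19.6 and 14.8 FPKM in CCR7loCD137hi and 17.2 and 13.3 FPKM in CCR7hiCD137lo, and Nop14, a processome protein, had 27.4 and 20.3 FPKM against 23.0 and 19.3 FPKM. These were the 2 fitted above 0, and both were higher in CCR7loCD137hi in both numbers. Pwp2, a processome scaffold protein, had 11.6 and 6.45 FPKM in CCR7loCD137hi and 12.3 and 8.46 FPKM in CCR7hiCD137lo. In the others the sign differed between the numbers. Wdr43, which links the processome to transcription, had 45.4 and 30.5 FPKM against 43.6 and 34.6 FPKM, and Rrp12, a factor of subunit export in yeast, 13.04 and 6.09 FPKM against 11.7 and 7.27 FPKM. Tsr1, a late 40S factor, had 29.2 and 19.7 FPKM against 29.2 and 22.6 FPKM, and Ltv1, also a late 40S factor, 27.7 and 16.4 FPKM against 24.5 and 20.8 FPKM. CCR7loCD137hi was higher in replicate 1, for Tsr1 by 0.0019 only, and lower in replicate 2 for these 4.

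Among the 13 factors of large subunit assembly 5 were fitted above 0 and 8 below. Noc2l, which acts in early 60S assembly in yeast, had 74.3 and 58.5 FPKM in CCR7loCD137hi and 73.4 and 60.5 FPKM in CCR7hiCD137lo (−0.02, SE 0.18, limma adjusted p = 0.988, unadjusted p = 0.938). Ddx21, an RNA helicase of the nucleolus that also binds genes of RNA polymerase II, had 67.1 and 37.8 FPKM in CCR7loCD137hi and 71.9 and 54.2 FPKM in CCR7hiCD137lo (−0.30, SE 0.32, limma adjusted p = 0.853, unadjusted p = 0.391). In replicate 2 it had the most negative difference of all factors, −0.51, against −0.10 in replicate 1. Rrp1b stood apart, with 20.4 and 16.7 FPKM in CCR7loCD137hi and 22.3 and 20.9 FPKM in CCR7hiCD137lo. It had the smallest difference between replicate numbers in both populations, −0.28 and −0.09, and was the only factor whose populations did not overlap.

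Pes1, Bop1 and Wdr12 encode the PeBoW complex, in which the 3 proteins bind each other. Bop1 (chromosome 15, 76452996 to 76477269, minus strand) had 52.5 and 22.01 FPKM in CCR7loCD137hi and 47.9 and 30.0 FPKM in CCR7hiCD137lo. In replicate 2 of CCR7loCD137hi it stood at 41.9% of replicate 1, the lowest such share of all factors. Pes1 had 28.2 and 20.6 FPKM against 23.7 and 20.1 FPKM, with a replicate 2 at 73.0% of replicate 1 in CCR7loCD137hi. Wdr12 had 11.5 and 6.17 FPKM against 10.1 and 6.96 FPKM. Thus only Pes1 of the 3 was higher in CCR7loCD137hi in both numbers, and no difference between the 3 genes was tested.

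For the other large subunit factors, Ppan, a 60S factor related to yeast Ssf1, had 58.0 and 35.6 FPKM in CCR7loCD137hi and 42.5 and 33.3 FPKM in CCR7hiCD137lo. It was higher in CCR7loCD137hi in both numbers, by 0.44 and 0.09 (limma adjusted p = 0.852). Gnl3, nucleostemin, a nucleolar GTPase, had 60.5 and 32.7 FPKM against 59.9 and 38.2 FPKM, and Nop2, a methyltransferase of 28S ribosomal RNA, 51.1 and 31.0 FPKM against 49.2 and 38.5 FPKM. Ftsj3, also a methyltransferase, had 49.1 and 24.1 FPKM against 46.0 and 31.0 FPKM, and Ddx18, a helicase, 41.2 and 27.6 FPKM against 37.7 and 33.1 FPKM. Rrs1, which helps to bring the 5S particle into the subunit, had 33.3 and 22.2 FPKM against 30.5 and 23.3 FPKM, and Nop16 32.3 and 19.2 FPKM against 28.9 and 19.4 FPKM. Each of these 6 was higher in CCR7loCD137hi in replicate 1 and lower in replicate 2.

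Within replicate 1, 28 of the 38 factors were higher in CCR7loCD137hi, with a median difference of 0.07, and within replicate 2 it was 7, with a median of −0.19. The same medians over all tested genes were 0.01 and −0.04. Scaled to equal sums apart from short RNA genes, the factors' medians were −0.013 and −0.22, with 18 of the 38 above 0 in replicate 1 and 5 in replicate 2. Taken with its sign and not as a size, the difference was higher in replicate 1 than in replicate 2 for 36 of the 38. Over all tested genes it was so for 59.4%, and under each of the 3 other scalings for 34 factors. This restates that replicate 2 was further below replicate 1 in CCR7loCD137hi than in CCR7hiCD137lo, with Fbl and Nat10 as the exceptions, and with 1 library of each kind it was not tested. The 7 factors higher in CCR7loCD137hi in both numbers (33% of all tested genes were) were Npm1, Ncl, Nop14, Rrp9, Pes1, Ppan and Ddx10. The 10 lower in both (35.9% of all tested genes were) were Fbl, Nop58, Dkc1, Rrp1b, Utp20, Ddx21, Polr1a, Nat10, Heatr1 and Pwp2. Both counts, as shares of 38 (18.4% and 26.3%), were below the shares over all genes. The other 21 were higher in replicate 1 and lower in replicate 2.

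**Figure D2:**
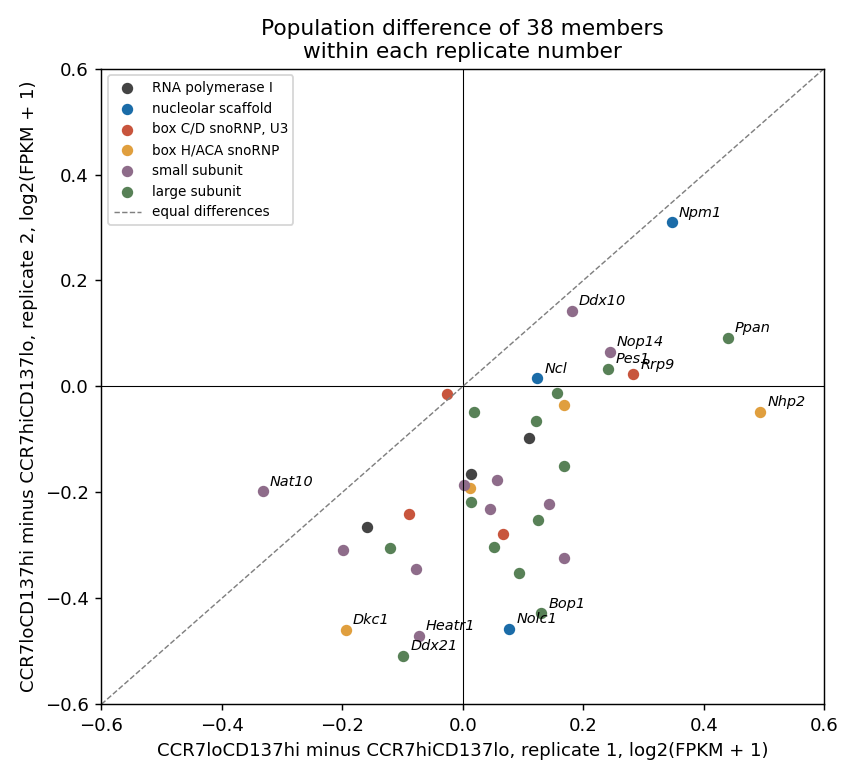
CCR7loCD137hi minus CCR7hiCD137lo on the log2(FPKM + 1) scale within replicate 1 (x axis) and within replicate 2 (y axis), with 1 point per factor, coloured by role; the dashed line marks equal differences. Points below the line are the 36 factors whose difference, taken with its sign and not as a size, was higher in replicate 1. Npm1 lies farthest up at 0.35 and 0.31.

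The order of the factors was partly shared between the numbers. Across the 38 genes, which are not independent replicates, the difference in replicate 1 and that in replicate 2 had a Pearson r of 0.62 and a Spearman rho of 0.62, and without Npm1 the Pearson r was 0.58. These pairs of values come from different libraries. Over all tested genes the same r was 0.23. The size of the difference between replicate numbers was likewise shared between the populations (r = 0.65), and it had no relation to the level of the factor (r = 0.07) or to the length of its transcript (r = −0.04). The difference between populations, by contrast, had an r of −0.48 with transcript length in GENCODE, so longer transcripts tended to the negative side. Of the 4 longest in GENCODE, those of Polr1a (−0.21), Utp20 (−0.25) and Heatr1 (−0.27) were below 0 and that of Ncl (0.07) was above. All these lengths are of a GENCODE model per gene, which may differ from the model behind the FPKM. For Nop10 it was 1109 nt, longer than its deposited locus (112261969 to 112262898). Over 9122 tested protein-coding genes that r was −0.16. These r values are descriptions over genes of the same 4 libraries.

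**Figure D3:**
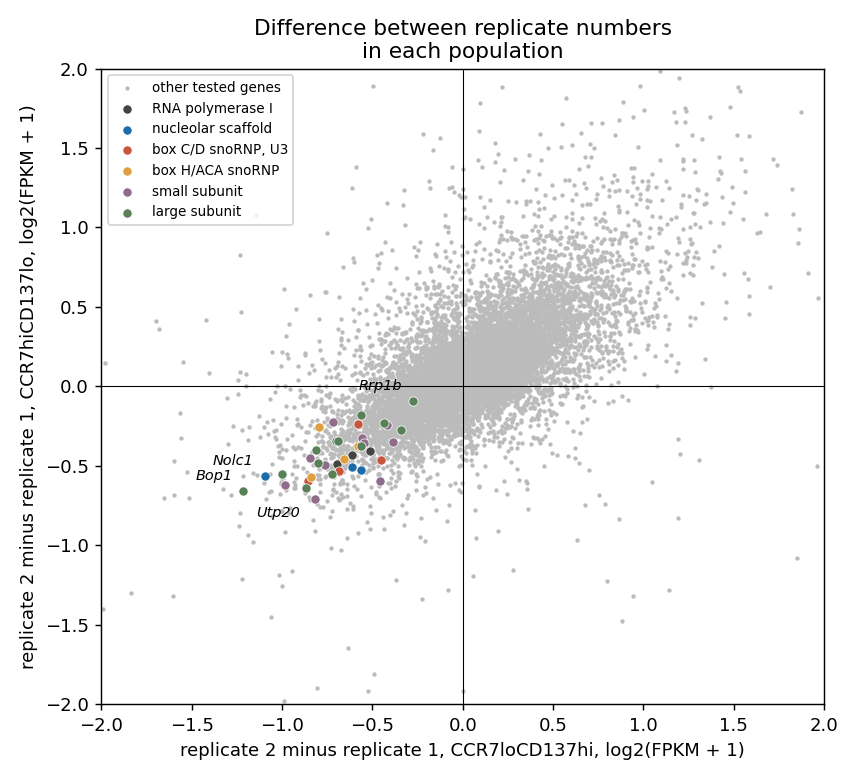
Replicate 2 minus replicate 1 on the log2(FPKM + 1) scale in CCR7loCD137hi (x axis) and in CCR7hiCD137lo (y axis) for the 38 factors, coloured by role, and for the other tested genes in grey, of which 114 lie outside the axes. All 38 factors lie in the lower left corner, from −0.28 and −0.09 for Rrp1b to −1.22 and −0.66 for Bop1.

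Summed by role, the scaffold group was above 1 in both numbers as a ratio of CCR7loCD137hi to CCR7hiCD137lo, and the other 5 roles were not. The sum of the 3 nucleolar scaffold genes was 999 and 657 FPKM in CCR7loCD137hi and 818 and 568 FPKM in CCR7hiCD137lo, ratios of 1.22 and 1.16 in replicates 1 and 2. Npm1 made up most of it, so the ratios are mainly those of 1 gene and not a trait of the role. By gene they were 1.27 and 1.24 for Npm1, 1.09 and 1.01 for Ncl and 1.06 and 0.722 for Nolc1. The 13 large subunit factors summed to 579 and 354 FPKM in CCR7loCD137hi and 544 and 409 FPKM in CCR7hiCD137lo, ratios of 1.07 and 0.865. For the 11 small subunit factors the sums were 277 and 175 FPKM against 270.4 and 201 FPKM, ratios of 1.02 and 0.873. The box C/D and U3 group had ratios of 1.01 and 0.872, the box H/ACA group 1.13 and 0.897, and the RNA polymerase I group 1.04 and 0.909. Apart from the scaffold group, every role was thus above 1 in replicate 1 and below 1 in replicate 2 in the values as deposited, which are not rescaled. The side above 1 in replicate 1 depends on the scaling. With equal sums apart from short RNA genes, 18 of the 38 factors were above 0 in replicate 1, against 28 as deposited. Role ratios were not computed under that scaling.

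Other genes of the pathway were taken from 5 lists that hold none of the 38. Of 149 such genes 147 were found and tested. Limma called 0 of them (0.0572% of all tested genes passed). At an unadjusted p under 0.05, 3 were higher and 2 lower (8.13% of all tested genes in either direction). The median difference of the 147 was −0.04, with 59 above 0 and 88 below. Lower in replicate 2 in both populations were 121 of the 147 (82.3%, against 29.4% of all tested genes), with medians of −0.36 in CCR7loCD137hi and −0.22 in CCR7hiCD137lo. The share was 44 of 52 for large subunit factors, 40 of 45 for small subunit factors, 11 of 12 for snoRNP assembly and 19 of 24 for the RNA exosome and RNase MRP. For the machinery of RNA polymerase I outside the 38 it was 7 of 14, with medians of −0.09 and −0.04.

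The 5 genes of these lists with an unadjusted p under 0.05 (8.13% of all tested genes had one) were 3 higher and 2 lower in CCR7loCD137hi. Polr1c, a subunit shared by RNA polymerases I and III, had 36.1 and 35.4 FPKM in CCR7loCD137hi and 29.2 and 26.5 FPKM in CCR7hiCD137lo (0.35, SE 0.12, limma adjusted p = 0.609). Zfp622, whose yeast counterpart acts in late 60S maturation, had 17.7 and 21.3 FPKM against 13.9 and 14.2 FPKM, and Mphosph6, an exosome cofactor, 27.2 and 32.0 FPKM against 21.97 and 23.1 FPKM. On the lower side, Spata5, a relative of the yeast 60S ATPase Drg1, had 20.2 and 19.2 FPKM in CCR7loCD137hi and 27.9 and 26.2 FPKM in CCR7hiCD137lo (−0.44, SE 0.12, limma adjusted p = 0.531). Naf1, which assembles box H/ACA snoRNPs and is replaced by Gar1, had 13.2 and 12.1 FPKM against 16.1 and 17.8 FPKM. In all 5 the populations did not overlap, which their choice by a small p makes likely. None passed the adjusted test (limma adjusted p from 0.531 to 0.613).

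Of the 16 growth regulators tested, 5 were lower in replicate 2 in both populations (29.4% of all tested genes were). In both populations 8 were higher in replicate 2 (4690 of the 10496 tested genes were). The difference from the 38 factors was not tested. Myc had 116 and 158 FPKM in CCR7loCD137hi and 81.5 and 122 FPKM in CCR7hiCD137lo, so it was higher in replicate 2 in both populations, where all 38 factors were lower (log2 difference between populations 0.44, SE 0.26, limma adjusted p = 0.741, unadjusted p = 0.159). Mxd1, which encodes a repressor that competes with Myc for its partner Max, had 23.6 and 13.2 FPKM against 3.96 and 5.64 FPKM. Cdkn1a and Cdkn2a, which encode inhibitors of the cell cycle, had 143 and 189 FPKM against 39.1 and 84.1 FPKM, and 16.0 and 8.28 FPKM against 2.67 and 2.01 FPKM. Cdkn2a was, like the factors, lower in replicate 2 in both populations. These 3 were the growth regulators with an unadjusted p under 0.05 (0.00448, 0.0156 and 0.00315), and none passed the adjusted test (limma adjusted p = 0.374, 0.501 and 0.346). Over all tested genes 8.13% had an unadjusted p under 0.05 in either direction.

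All 18 genes of cycling cells were fitted below 0, with a median of −0.25, and 13 had both CCR7loCD137hi libraries below both CCR7hiCD137lo libraries (21.5% of all tested genes did). None was called by limma, and 2 had an unadjusted p under 0.05 (8.13% of all tested genes in either direction). Top2a, a topoisomerase of dividing cells, had 191 and 195 FPKM in CCR7loCD137hi and 313 and 327 FPKM in CCR7hiCD137lo (−0.73, SE 0.11, limma adjusted p = 0.296). Ccna2, cyclin A2, had 97.2 and 98.6 FPKM against 132 and 129.8 FPKM. Of the 18, 8 were lower in replicate 2 in both populations (29.4% of all tested genes were). Within both numbers 17 of the 18 were lower in CCR7loCD137hi, against 10 of the 38 factors and 35.9% of all tested genes. The difference between these lists was not tested.

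**Figure D4:**
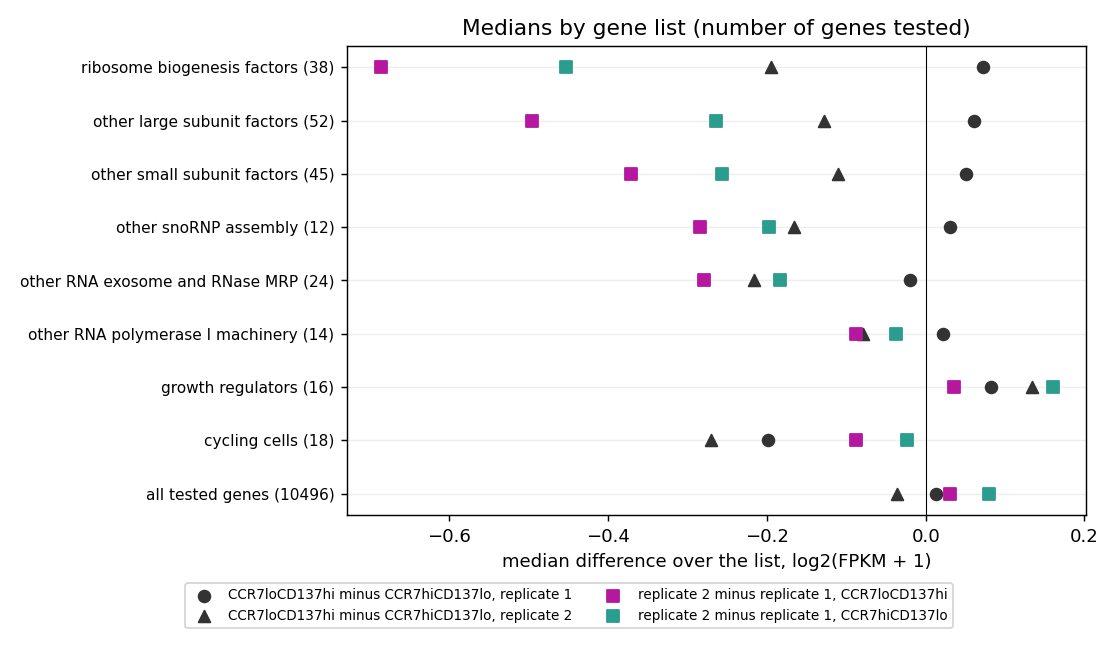
Medians over each list of the population difference within replicate 1 (black circles) and replicate 2 (black triangles), and of replicate 2 minus replicate 1 in CCR7loCD137hi (magenta) and CCR7hiCD137lo (green), on the log2(FPKM + 1) scale. The 38 factors have the most negative squares, −0.69 and −0.45. The cycling genes have both black symbols below 0, at −0.20 and −0.27, as do the RNA exosome and RNase MRP genes, at −0.019 and −0.22.

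Because the numbers differed so much in these factors, their estimate for the populations depends on which libraries are in it. Without CCR7loCD137hi replicate 1 or replicate 2 the median log2 difference of the factors was −0.39 or 0.29, with 1 or 36 of the 38 above 0. Without CCR7hiCD137lo replicate 1 or replicate 2 it was 0.14 or −0.26, with 33 or 5 above 0. Such fits hold the numbers unequally, so part of each value is the difference between numbers. Npm1 and Rrp1b were the 2 factors that kept their sign in all 4 fits, with ranges of 0.047 to 0.61 and −0.35 to −0.076.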

How the data were processed

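Polyadenylated RNA of 4 libraries was measured after TRIzol extraction and a TruSeq Stranded mRNA kit, per the labels' protocols. The authors deposited 1 table of FPKM values per library, with the columns of a Cufflinks gene table per the file headers. Per the submitters' processing notes, the tools were Cufflinks 2.0.2, TopHat 1.3.2 and Bowtie 0.12.8, in no stated order or role, and the build was mm10. For the annotation, filters, strand setting and scaling between libraries, details were not given in the sources used here. Overlapping and antisense genes may therefore share reads.

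Each table held 23746 entries. For 240 symbols with several entries that of highest mean FPKM was used. Genes with a mean of at least 1 FPKM entered limma 3.58.1 (R 4.3.3) as log2(FPKM + 1), with a variance trend, 2 libraries against 2, two-sided. Residual and prior degrees of freedom were 2 and 2.54. An exact permutation test of 2 against 2 cannot go below p = 0.333. Fold changes with a pseudocount understate changes of low genes. The script was tested on simulated data. Groups came from the labels. Printed starts are those of the files raised by 1. Relative depth came from ratios of FPKM values under 0.3, which for 74.2% to 75.7% of genes were at most 0.002 (natural log) from a ratio of whole fragment numbers (9.83% to 11.0% by chance). Absolute depth assumed fragments of 200 nt and single-exon genes. The floor of 3 fragments on a 1 kb transcript was 0.259 and 0.477 FPKM in CCR7loCD137hi replicates 1 and 2 and 0.146 and 0.231 FPKM in CCR7hiCD137lo replicates 1 and 2. These floors and the counting error cover counting only.

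The 38 factors and the lists of other genes were chosen with earlier results of these data known. All factors were to be named, with full statistics for the highest mean FPKM and the largest absolute log2 difference in each role, and in each other list up to 3 genes per direction with an unadjusted p under 0.05, and Myc. Of the lists, T cell markers had 3 of 4 symbols found. Other settings tried were the pseudocount, the filter, 3 scalings, no variance trend, a replicate block and leaving out each library. Tables and plots were made in Python 3.11.15 with pandas 2.3.3, numpy 2.4.6 and matplotlib 3.10.9.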

Additional observations from a re-analysis of the deposited data

How the results depend on the processing

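The absence of calls among the 38 factors held in all 12 alternatives (0 called in each), with a smallest adjusted p from 0.123 with the replicate block to 1 without CCR7hiCD137lo replicate 1. Over all genes, 6 were called, against 1 when no gene was filtered, 2 after quantile normalization, 2 when the variance trend was left out, 42 with the replicate block and 12 to 30 when 1 library was left out. Nothing in the labels pairs libraries of the same number. Their deviations from the population means had r = 0.214 over 10496 genes. With the replicate block 3 of the 38 factors had an unadjusted limma p under 0.05, and none was called. They were Npm1 (0.00762), Dkc1 (0.0367) and Nat10 (0.0470). The share of all tested genes under that limit with the block was not counted, so these 3 have no background beside them. All 38 were lower in replicate 2 in both populations under every pseudocount, filter and scaling tried. Equal sums apart from short RNA genes turned the sign of Rrs1 (−0.028), Wdr12 (−0.043) and Mybbp1a (−0.052), and quantile normalization that of Mybbp1a (−0.022).

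Leaving out 1 library moved the median of the factors between −0.39 and 0.29 and the number above 0 between 1 and 36. These fits hold the replicate numbers unequally. Ranges of the log2 difference that cross 0 were as follows. In the RNA polymerase I, scaffold and snoRNP roles, Polr1a ran from −0.47 to 0.046, Polr1b from −0.38 to 0.23, Mybbp1a from −0.34 to 0.35, Ncl from −0.24 to 0.38, Nolc1 from −0.74 to 0.36, Fbl from −0.25 to 0.21, Nop56 from −0.40 to 0.18, Nop58 from −0.51 to 0.18, Rrp9 from −0.27 to 0.58, Dkc1 from −0.75 to 0.092, Gar1 from −0.22 to 0.36, Nhp2 from −0.17 to 0.62 and Nop10 from −0.42 to 0.24. In the small subunit, Nop14 ran from −0.054 to 0.36, Rrp12 from −0.53 to 0.45, Wdr43 from −0.34 to 0.22, Utp20 from −0.66 to 0.16, Ddx10 from −0.031 to 0.35, Noc4l from −0.48 to 0.29, Nat10 from −0.56 to 0.032, Heatr1 from −0.70 to 0.15, Pwp2 from −0.59 to 0.17, Tsr1 from −0.37 to 0.18 and Ltv1 from −0.44 to 0.28. In the large subunit, Nop2 ran from −0.48 to 0.22, Nop16 from −0.29 to 0.43, Rrs1 from −0.25 to 0.31, Bop1 from −0.76 to 0.46, Pes1 from −0.081 to 0.36, Wdr12 from −0.39 to 0.41, Ppan from −0.079 to 0.61, Gnl3 from −0.54 to 0.33, Ddx21 from −0.71 to 0.10, Ddx18 from −0.34 to 0.22, Noc2l from −0.19 to 0.16 and Ftsj3 from −0.63 to 0.37. The counting error of a single value of a factor was at most about 9.49%, and each population had 2 libraries.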
